A study of Saccharomyces cerevisiae with 8 samples.

Results

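The genes of glycolysis, alcoholic fermentation and the pentose phosphate pathway were followed in aneuploid strains of Saccharomyces cerevisiae, that is, in budding yeast whose chromosome number departs from a whole set. The set holds 35 genes, listed by enzyme, and all 35 were found by gene or systematic name among the 6256 genes of the array. The strains A2, A3, A9, A10, A13, A14, A15 were each grown to mid-log phase and measured on 1 two-colour Agilent array, with the strain's RNA in Cy5 and the wild-type RNA WT2 in Cy3. A further array carried the wild-type RNA WT1 in Cy5 against the same WT2, and it served as the control. The labels give each strain by its name alone, so genotype, mating type, parent and the chromosomes gained were not given in the sources used here, nor was the wild-type background. Each strain was measured once, so a value per strain has no replicate, and the 7 strains are replicates of the aneuploid state only.

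Glycolysis splits glucose into pyruvate with a net gain of ATP, and yeast growing on glucose then decarboxylates most pyruvate and reduces the acetaldehyde to ethanol, even in air. The pentose phosphate pathway branches off after hexose phosphorylation, makes NADPH in its oxidative part and interconverts sugar phosphates in its non-oxidative part. Many steps have a major isoenzyme, expressed strongly on glucose, beside minor ones that glucose represses or that stress and slow growth induce. Both kinds are described here on the log2 scale, as the ratio of a strain over WT2, where 1 is a 2-fold higher and -1 a 2-fold lower level. A ratio compares a gene with itself between RNAs, and signals of different probes were not compared with each other. The SD of a single spot, estimated from the duplicate spots of these genes, was 0.0395 to 0.119 over the 8 arrays.

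A few facts of the arrays bear on what follows. The genes that mark mating type and ploidy differed between the strains. The 7 a-specific genes, active in a cells, had medians of -4.40 in A9 and -4.03 in A10, against 0.08 on WT1. The 4 alpha-specific genes had a median of 4.89 in A9 and 0.34 in A10, against 0.03 on WT1. The 11 genes specific to haploids, which a/alpha diploids shut off, had a median of -2.88 in A10, where 11 of 11 were at least 2-fold lower, of -0.61 in A15, -0.34 in A9 and -0.24 in A3, against 0.10 on WT1. A2, A3 and A15 had a-specific medians of -1.06, -1.04 and -1.84.

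Of the 35 genes, 34 were well above background on all 8 arrays. TKL2 was well above background in Cy3 on 4 arrays and PDC6 on 7, so their ratios rest in part on a WT2 signal near background. Saturation touched this set far more than the array at large. At least 1 Cy5 spot was saturated on some array for 10 of the 35 genes (28.6%), against 82 of all 6126 genes tested (1.34%). In Cy3 only 1 spot of the set was saturated, that of TPI1 on 1 array. A ratio with a saturated Cy5 spot is a lower bound, so a negative one gives no direction. GPM1, ENO2 and TPI1 were saturated in Cy5 in 7 of 7 strains and also on WT1, so no fold is given for them. PGK1 had both spots saturated in A2, A9, A10, A13 and A14, and FBA1 at least 1 spot in 6 strains.

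**Figure D1:**
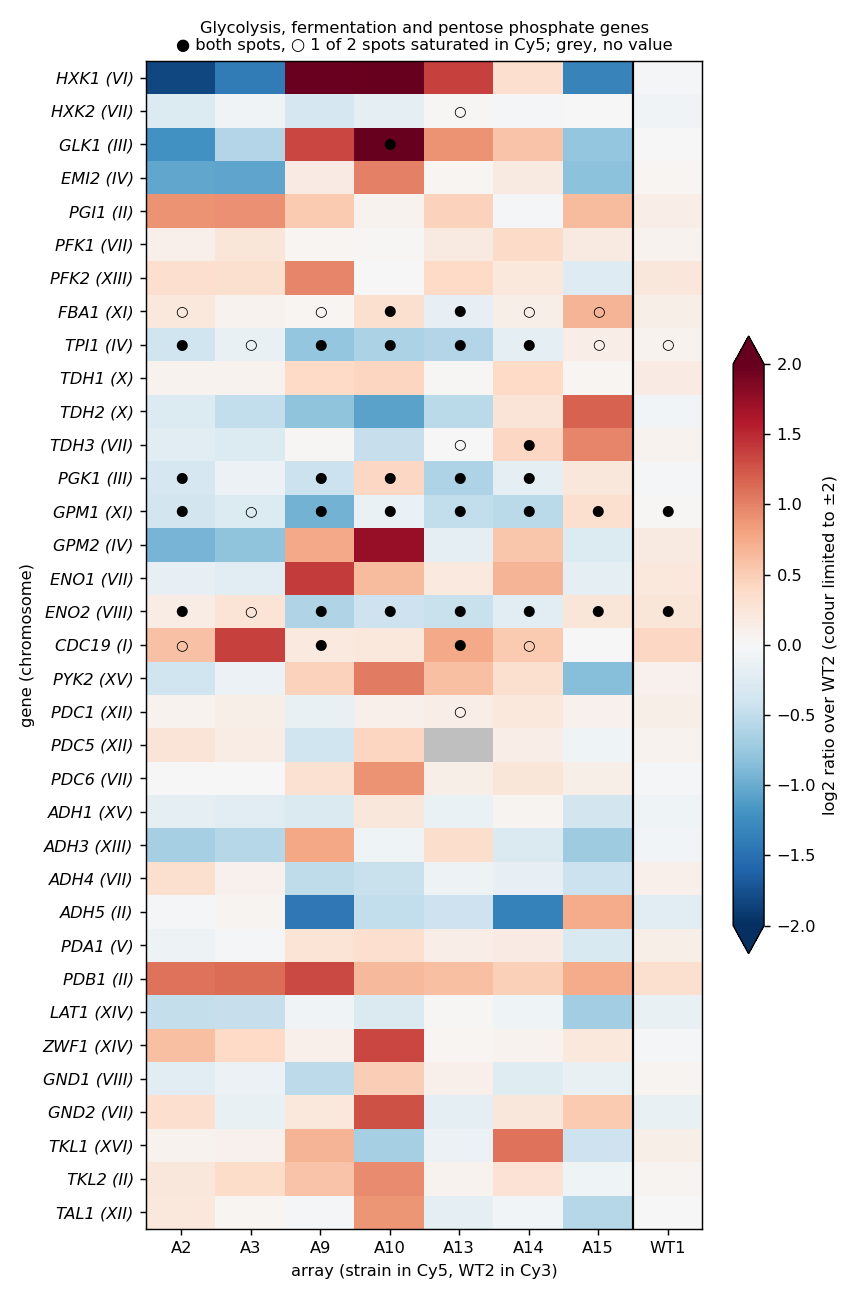
Log2 ratio over WT2 (colour, limited to ±2) of the 35 genes, in the order of the pathway from top to bottom, on the 7 strain arrays and on WT1 at the right. Chromosomes stand in brackets, dots mark saturated Cy5 spots and grey marks the missing PDC5 value in A13. The strongest colours belong to HXK1 and GLK1, between -1.83 and 3.55, while the WT1 column stays between -0.22 and 0.42.

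The first question was whether the strains moved any of these genes together relative to wild type. None of the 35 passed limma's test of the 7 strains minus WT1 in either direction, and no gene of the array did (0% of 6126 genes called higher or lower at an adjusted p under 0.05). At an unadjusted p under 0.05 there were 0 of the 35 genes and 32 of the 6126. The median fitted difference of the 35 was -0.0049, with 17 above 0, against 0.04 over all genes tested. After subtraction of each chromosome's median on each array, again 0 of 35 and 0 of 6123 genes (0%) were called, with 0 and 52 at an unadjusted p under 0.05. The fit assumed that the lone WT1 array varies like the strains.

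When the ratios were tested against 0, with WT2 as the lone control RNA and no wild-type spread, limma called 1 of the 35 higher and 0 lower, where 2.33% of all genes were called higher, 3% lower and 5.34% in either direction. The called gene was PDB1, at 0.86 (SE 0.114, n = 7 strains, adjusted p = 0.0202 by limma). Relative to the chromosomes, PDB1, CDC19 and PFK1 were called higher and GPM1 lower, where 5.19% of all genes were called higher, 6.21% lower and 11.4% in either direction. PDB1 was then at 0.48 (adjusted p = 0.0134 by limma), CDC19 at 0.36 (adjusted p = 0.0339) and PFK1 at 0.25 (adjusted p = 0.0232). WT1 itself lay above WT2 for these 3 genes, at 0.32 for PDB1, 0.46 for CDC19 and 0.07 for PFK1 on that scale, and relative to WT1 none of them passed. The call of GPM1, at -0.54 (adjusted p = 0.0154 by limma), rests on saturated Cy5 spots and has no direction.

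The single strains held the variation. In A10, 7 of the 35 genes were at least 2-fold higher than WT2 (8.41% of all genes were) and 1 was at least 2-fold lower (3.46%). A9 had 4 higher (4.24%) and 1 lower (1.24%). A2 had 1 higher (2.68%) and 3 lower (1.1%), and A3 had 2 higher (2.08%) and 2 lower (0.686%). A13 had 1 higher (0.426%) and 0 lower (0.0984%), A14 had 1 and 1 (2.98% and 0.327%), and A15 had 1 and 1 (2.29% and 1.27%). On WT1 the counts were 0 and 0, where 0% of all genes were higher and 0.0163% lower. In all, 13 of the 35 genes passed 2-fold in at least 1 strain (22% of all genes did). HXK1, GLK1, EMI2 and TDH2 passed it both ways, higher in 1 strain and lower in another (1.22% of all genes did). Over the 7 strains the median gene of the set spanned 1.04 log2 units from lowest to highest, against 0.90 over all genes tested. A span of at least 2 was reached by 6 of the 35 genes (17.1%), against 5.13% of all genes.

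Hexose phosphorylation, the entry step of both routes, held the widest spread. HXK1 encodes a hexokinase that glucose represses. Its log2 ratio was -1.83 in A2, -1.40 in A3, 1.97 in A9, 3.55 in A10, 1.37 in A13, 0.34 in A14 and -1.33 in A15, against -0.03 on WT1. The strains fell on both sides of wild type, with A2, A3 and A15 at 0.282, 0.380 and 0.398 times WT2 and A10 at 11.7 times. HXK1 lies on chromosome VI, whose median stayed between -0.10 and 0.03 on all 8 arrays. GLK1, the glucokinase, was at -1.20, -0.58, 1.33, 3.05, 0.91, 0.57 and -0.77 in strains A2, A3, A9, A10, A13, A14, A15, against -0.0029 on WT1. Its A10 value is a lower bound, since both Cy5 spots were saturated, and chromosome III, which carries it, had a median of 0.67 in A10. EMI2, a paralogue of GLK1 needed for early meiotic induction, spanned less, with -1.04, -1.05, 0.16, 1.0, 0.04, 0.18 and -0.82 in the same order, against 0.03 on WT1. It was at least 2-fold lower in A2 and A3 and at 2-fold in A10.

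HXK2, the main hexokinase on glucose, which also takes part in glucose repression, stayed near wild type. Its values were -0.28, -0.06, -0.33, -0.17, 0.02, -0.03 and 0.01 in strains A2, A3, A9, A10, A13, A14, A15, against -0.08 on WT1. The span of 0.36 was the second smallest of the 35 genes, after PFK1 at 0.35. The A13 value had 1 saturated spot. HXK1, GLK1 and EMI2 were each below wild type in A2, A3 and A15 and above it in the other 4 strains, although EMI2 in A13 (0.04) barely passed WT1 (0.03). HXK1 minus HXK2, the difference of their log2 ratios, ran from -1.55 in A2 to 3.72 in A10, against 0.05 on WT1. Over the strains the fitted difference from WT1 was 0.41 for HXK1 (SE 1.82) and 0.47 for GLK1 (SE 1.33), with adjusted p = 1 by limma for both. The mean hides values of opposite sign: without A9 and A10 the differences were -0.54 for HXK1 and -0.21 for GLK1, and without A10 alone they were -0.12 for HXK1 and 0.0441 for GLK1. The A10 value of GLK1 is saturated, so leaving out saturated spots gave the same 0.0441. Among the arrays in WT1's row of the slide, which holds the strains A13, A14 and A15, the differences were 0.16 for HXK1 and 0.24 for GLK1.

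The 15 general stress genes, HSP12, CTT1 and DDR2 among them, were set beside these values. They had medians of -0.21 in A2, -0.14 in A3, 1.63 in A9, 1.35 in A10, 0.51 in A13, 0.38 in A14 and -0.18 in A15, against 0.05 on WT1. At least 2-fold higher were 0, 0, 10, 10, 3, 3 and 1 of the 15 in that order, and on WT1 0. At least 2-fold lower were 1 in A2 and 2 in A15, and 0 on the other arrays. In A2, A3 and A15, where HXK1 was low, 6, 4 and 5 of the 15 were above 0, and HSP26 in A15 was at 1.07. Their range was -0.04 to 3.50 in A9 and -0.09 to 4.80 in A10. The part of growth state, mating type or ploidy in the values of HXK1, GLK1 and EMI2 was not tested.

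**Figure D2:**
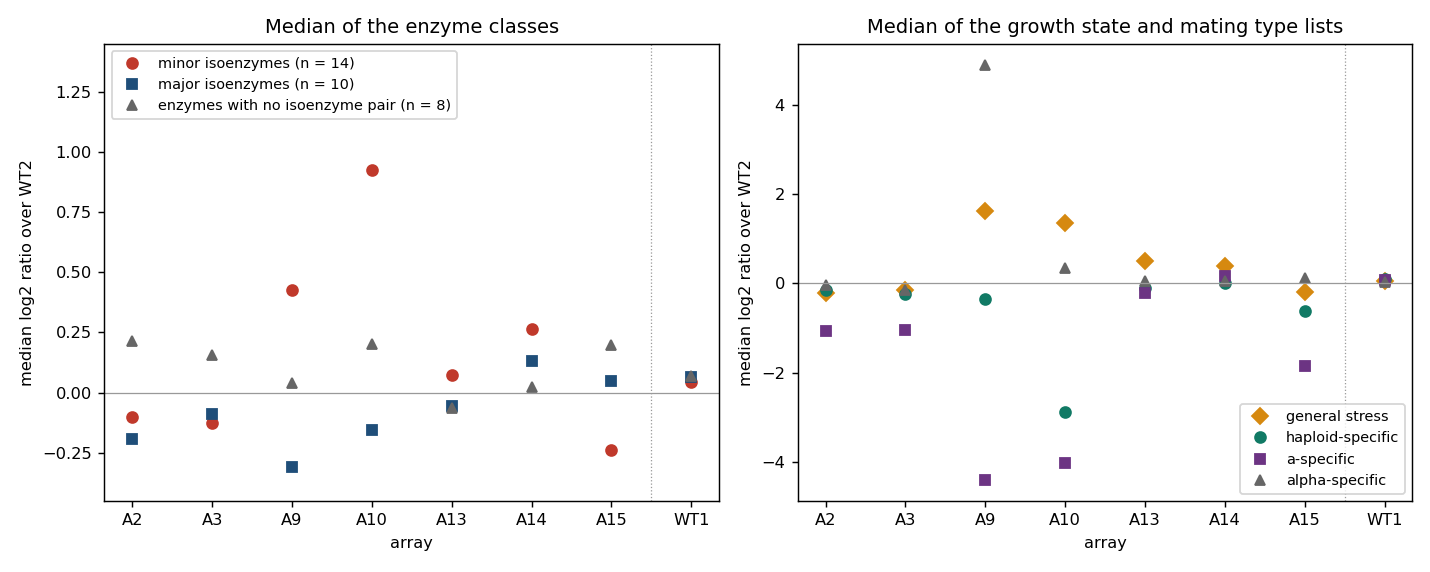
Median log2 ratio over WT2 on each array, for the 14 minor, 10 major and 8 single enzymes (left) and for the stress and mating type lists (right), with the strains left of WT1. Minor isoenzymes stand highest in A10, at 0.93, where the haploid-specific genes are at -2.88 and the stress genes at 1.35.

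The next enzymes convert hexose phosphate to triose phosphate. PGI1, phosphoglucose isomerase, lies on chromosome II, whose median was 0.66 in A2, 0.73 in A3, 0.64 in A9 and 0.49 in A15. PGI1 stood at 0.89, 0.92, 0.53 and 0.63 in these strains, and at 0.45 in A13, 0.08 in A10 and -0.03 in A14, against 0.13 on WT1. Its 4 highest values were those of the 4 strains with a raised chromosome II. In A13 that chromosome's median was 0.28, just under the threshold of 0.3 used for raised chromosomes. Its fitted difference from WT1 was 0.37 (SE 0.361, adjusted p = 1 by limma), or 0.22 among the arrays in WT1's row of the slide. PFK1 and PFK2 encode the alpha and beta subunits of phosphofructokinase, which work in 1 complex but lie on different chromosomes. PFK1, on chromosome VII, stayed between 0.03 and 0.38 in the 7 strains, against 0.07 on WT1. PFK2, on chromosome XIII, was at 0.97 in A9, where that chromosome's median was 0.70, and between -0.25 and 0.40 in the other 6, against 0.22 on WT1. In A9 the subunits thus differed, with PFK2 at 0.97 beside PFK1 at 0.04. FBA1, aldolase, was at 0.21, 0.08, 0.03, 0.33, -0.16, 0.12 and 0.69 in strains A2, A3, A9, A10, A13, A14, A15, against 0.12 on WT1. A15 and A10 gave the highest readings, the strains with a raised chromosome XI (0.64 in both), but all strain values except that of A3 are lower bounds. TPI1, triose phosphate isomerase, was at -0.40, -0.15, -0.78, -0.63, -0.59, -0.20 and 0.14, against 0.07 on WT1, with at least 1 saturated spot on all 8 arrays, so it is not compared.

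The 3 glyceraldehyde phosphate dehydrogenases did not move alike. Their coding sequences are closely related, so a probe may take up RNA of a sister gene and single values are uncertain. TDH2 was at -0.28, -0.49, -0.81, -1.06, -0.53, 0.25 and 1.17 in strains A2, A3, A9, A10, A13, A14, A15, against -0.05 on WT1. TDH3, the main isoenzyme, was at -0.20, -0.28, 0.02, -0.46, 0.01, 0.42 and 0.98, against 0.07 on WT1. TDH2 was highest in A15 and lowest in A10. TDH3 had its highest reading in A15 too, but its values in A13 and A14 are lower bounds from saturated spots. TDH2 lies on chromosome X, at 0.46 in A15, and TDH3 on chromosome VII, at -0.08. TDH1, known for expression in stationary phase, lies on chromosome X too but stood at 0.04 in A15. In A2, A3, A9, A10, A13 and A14 it was at 0.08, 0.08, 0.40, 0.42, 0.02 and 0.40, against 0.16 on WT1. TDH1 minus TDH2 was 1.49 in A10 and -1.13 in A15, against 0.21 on WT1.

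Lower glycolysis was the stretch most hidden by saturation. PGK1, phosphoglycerate kinase, was unsaturated in A3 at -0.12 and in A15 at 0.23, against -0.05 on WT1. Its other values are lower bounds, at -0.34 in A2, -0.44 in A9, 0.42 in A10, -0.61 in A13 and -0.19 in A14, and only in A10 was its chromosome III raised, at 0.67. GPM1, the working phosphoglycerate mutase, read -0.37, -0.27, -0.94, -0.14, -0.50, -0.54 and 0.32 in strains A2, A3, A9, A10, A13, A14, A15, against 0.02 on WT1. ENO2, the enolase that glucose induces, read 0.14, 0.27, -0.59, -0.41, -0.44, -0.22 and 0.25, against 0.24 on WT1. Saturation leaves both without a direction. Their minor counterparts were unsaturated on all 8 arrays. GPM2, a homologue of GPM1 held to lack activity, was at -0.92, -0.81, 0.76, 1.74, -0.18, 0.55 and -0.28 in strains A2, A3, A9, A10, A13, A14, A15, against 0.17 on WT1. It was 3.35-fold over WT2 in A10, and it lies on chromosome IV, whose median there was -0.22. ENO1, the enolase that varies less with the carbon source, was at -0.17, -0.21, 1.41, 0.63, 0.19, 0.69 and -0.20, against 0.21 on WT1. Its highest value, 2.65-fold over WT2, was in A9, and A2, A3, A13 and A15 lay below WT1, A13 by little.

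Pyruvate kinase closes glycolysis. CDC19, the major enzyme, is the only member on chromosome I, which was raised in A3 (median 0.67) and A13 (0.59). CDC19 was at 1.36 in A3 and at 0.76 in A13, its highest readings. The A3 value was free of saturation and that of A13 is a lower bound with both spots saturated. In A2 it was at 0.58, in A14 at 0.53, in A10 at 0.21, in A9 at 0.20 and in A15 at -0.01, against 0.42 on WT1. The values of A2, A9 and A14 are lower bounds too, with 1, 2 and 1 saturated spots, so their distance from WT1 cannot be read. The fitted difference of 0.10 (SE 0.436, adjusted p = 1 by limma) was -0.04 without A3 and 0.0060 among the arrays in WT1's row of the slide. PYK2, the minor enzyme, which glucose represses, was at -0.39, -0.11, 0.46, 1.04, 0.61, 0.33 and -0.85 in strains A2, A3, A9, A10, A13, A14, A15, against 0.08 on WT1. It lies on chromosome XV, raised in A10 at 0.58, and its excess there was 0.46.

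**Figure D3:**
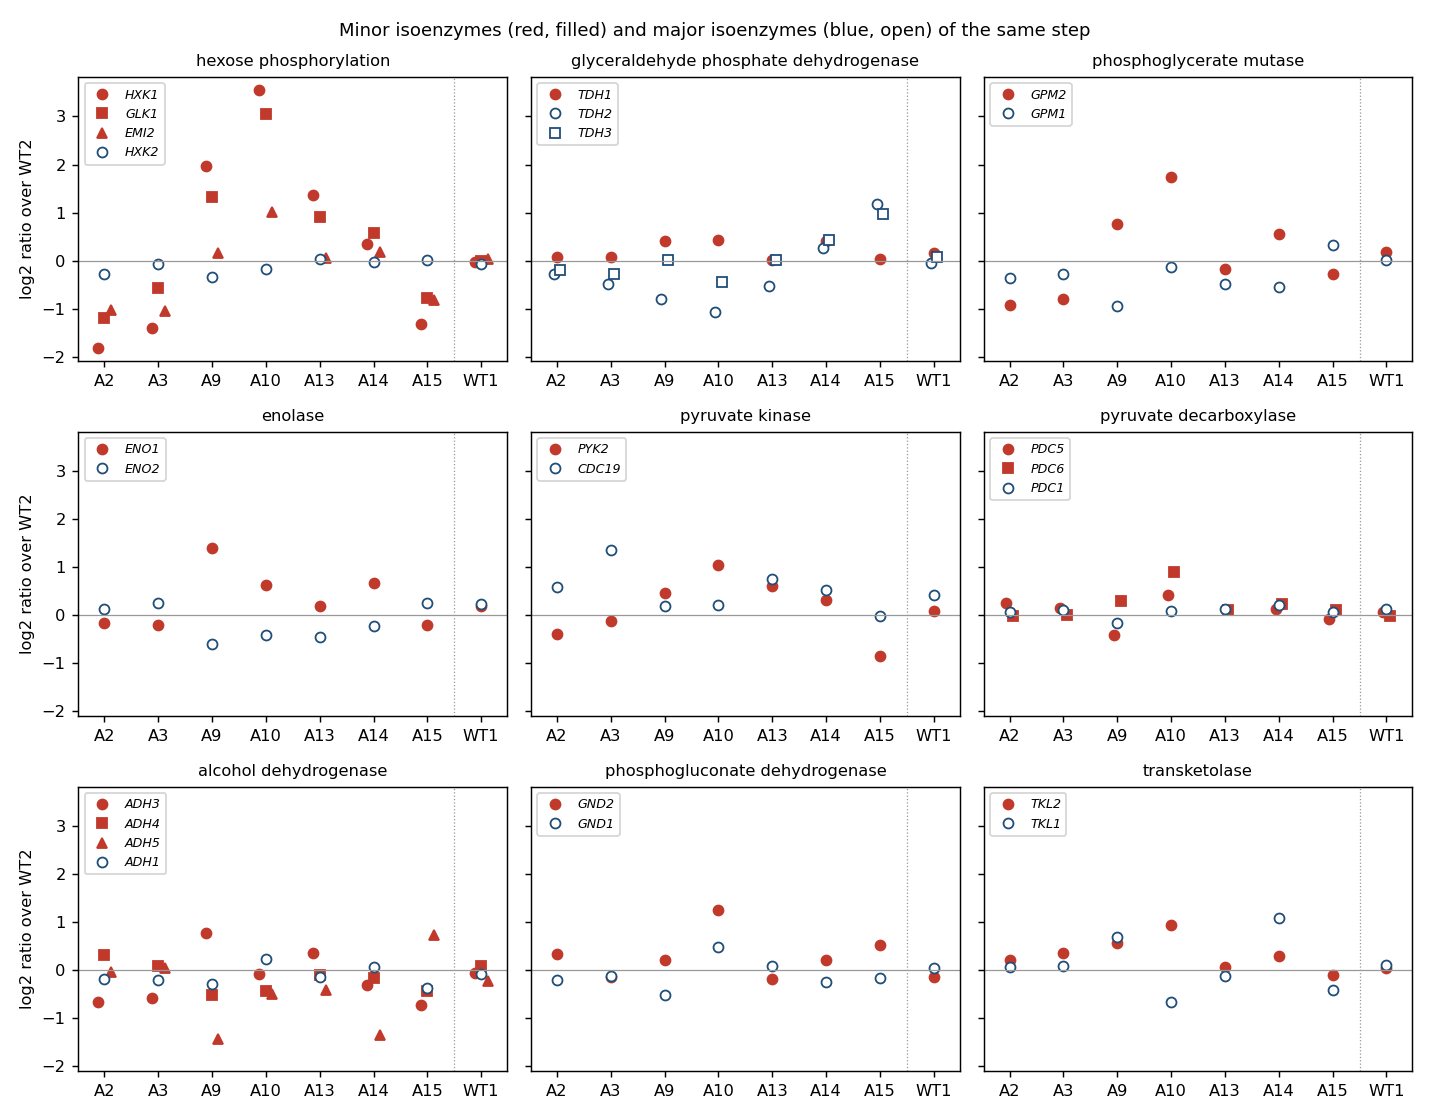
Log2 ratio over WT2 on the 7 strain arrays and WT1 for each step with isoenzymes, minor isoenzymes as filled red points and major ones as open blue points. HXK1 and GLK1 reach 3.55 and 3.05 in A10 while HXK2 stays within -0.33 to 0.02, and TDH2 and TDH3 read 1.17 and 0.98 in A15.

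Fermentation proceeds through pyruvate decarboxylase and alcohol dehydrogenase. PDC1, the main pyruvate decarboxylase, was at 0.07, 0.12, -0.15, 0.10, 0.14, 0.21 and 0.08 in strains A2, A3, A9, A10, A13, A14, A15, against 0.12 on WT1. It lies on chromosome XII, raised in A2 (0.59), A3 (0.50) and A10 (0.32), yet none of these 3 strains had PDC1 above WT1. PDC5, which cells use when PDC1 is missing, lies on the same chromosome and was at 0.26, 0.15, -0.40, 0.43, 0.13 and -0.08 in A2, A3, A9, A10, A14 and A15, against 0.07 on WT1, with no value in A13. PDC6, a minor form, was at -0.0029, 0.0034, 0.30, 0.90, 0.12, 0.24 and 0.12 in strains A2, A3, A9, A10, A13, A14, A15, against -0.02 on WT1. PDC6 was above WT1 in 7 of 7 strains, but its sign over WT2 depended on the scaling in 6 strains. Centring each array on its median gave between -0.50 and 0.41, and Agilent's processed signals between 0.19 and 1.90, so A10 alone was positive under each scaling tried. With median centring PDC6 in A9 (-0.49), A13 (-0.50) and A14 (-0.38) lay below WT1 (-0.18). The PDC genes are close relatives and share the uncertainty of the TDH genes.

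ADH1, the main alcohol dehydrogenase, which turns acetaldehyde into ethanol, was at -0.18, -0.21, -0.28, 0.23, -0.14, 0.06 and -0.37 in strains A2, A3, A9, A10, A13, A14, A15, against -0.08 on WT1. In A10, where its chromosome XV was raised, it was at 0.23, which is 0.35 below that chromosome. ADH5, a minor form on chromosome II, was at -0.04, 0.05, -1.42, -0.49, -0.42, -1.36 and 0.74 in strains A2, A3, A9, A10, A13, A14, A15, against -0.22 on WT1. A9 and A14 were the low strains, at 0.373-fold and 0.391-fold of WT2, and A15 was the high strain. In A9 chromosome II itself was raised at 0.64, so ADH5 lay 2.07 below its chromosome, the largest such gap of the set. Relative to the chromosomes it was below wild type in A2 and A3 too, at -0.69 and -0.67, against -0.22 on WT1. Its fitted difference from WT1 was -0.20 (SE 0.711, adjusted p = 1 by limma). It was -0.03 without A9, -0.05 without A14, -0.40 without A15 and -0.13 among the arrays in WT1's row of the slide. ADH3, the mitochondrial enzyme, was at -0.66, -0.58, 0.77, -0.08, 0.36, -0.30 and -0.72 in the same order, against -0.05 on WT1. Its A9 value stands beside a chromosome XIII median of 0.70. ADH4, known to respond to zinc supply, was at 0.33, 0.09, -0.51, -0.44, -0.10, -0.16 and -0.43, against 0.09 on WT1.

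Pyruvate dehydrogenase takes pyruvate into the mitochondrion's citric acid cycle in place of fermentation, and its core subunits did not move alike. PDB1, the beta subunit of the E1 enzyme, was at 1.09, 1.11, 1.32, 0.66, 0.60, 0.47 and 0.74 in strains A2, A3, A9, A10, A13, A14, A15, against 0.32 on WT1. All 7 strains lay above WT1, a pattern that 3 of the 35 genes showed (PDB1, ZWF1 and PDC6) and 6.88% of all genes. None of the 35 had all 7 strains below WT1 (7.34% of all genes did). PDB1 lies on chromosome II, and its 4 highest values were in A2, A3, A9 and A15, where that chromosome was raised. In A13 the chromosome stood at 0.28, just under the threshold. Relative to its chromosome it was still between 0.25 and 0.79 in the strains, but WT1 was at 0.32 on that scale, with A13 level with it, A15 below and the other 5 strains above. The difference of the strains from WT1 was 0.54 (SE 0.322, unadjusted p = 0.13, adjusted p = 1 by limma), the smallest p of the set in that fit. Among the arrays in WT1's row of the slide it was 0.29. PDA1, the alpha subunit, stayed between -0.31 and 0.33, against 0.12 on WT1. LAT1, the E2 core, was between -0.70 and 0.03, against -0.14 on WT1.

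Of the 6 pentose phosphate genes, ZWF1 and GND2 were at least 2-fold higher in A10 (8.41% of all genes were), and none was in another strain but TKL1 in A14 (2.98%). For TKL2 the count depended on the scaling, as given below. ZWF1, glucose phosphate dehydrogenase, opens the oxidative branch. It was at 0.60, 0.40, 0.10, 1.34, 0.03, 0.07 and 0.21 in strains A2, A3, A9, A10, A13, A14, A15, against -0.04 on WT1. All strains lay above WT1, but in A13 and A14 by about 0.1 or less. The fitted difference was 0.43 (SE 0.442, adjusted p = 1 by limma), but 0.27 without A10 and 0.14 among the arrays in WT1's row of the slide. GND2, the minor phosphogluconate dehydrogenase, was at 0.33, -0.14, 0.21, 1.27, -0.18, 0.22 and 0.53, against -0.15 on WT1, with a fitted difference of 0.46 (SE 0.462, adjusted p = 1 by limma), or 0.30 without A10. GND1, the major form of the same enzyme, was at -0.21, -0.11, -0.52, 0.49, 0.09, -0.25 and -0.15, against 0.05 on WT1, with A10 highest and A9 lowest.

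In the non-oxidative branch TAL1, transaldolase, was at 0.89 in A10, where its chromosome XII was at 0.32, and at -0.57 in A15, with the other strains between -0.17 and 0.21, against -0.01 on WT1. TKL1, the major transketolase, was at 0.07, 0.08, 0.69, -0.66, -0.11, 1.08 and -0.41 in strains A2, A3, A9, A10, A13, A14, A15, against 0.12 on WT1. The 2 high strains were A9 and A14, where its chromosome XVI was raised at 0.55 and 0.75, and A10 was the lowest. TKL2, the minor form, was at 0.22, 0.37, 0.58, 0.95, 0.07, 0.29 and -0.09, against 0.06 on WT1. Its values changed sign with the scaling in A9, A13 and A14, where WT2 was not well above background. With Agilent's processed signals TKL2 passed 2-fold in A2 (1.16), A3 (1.54), A9 (2.25), A10 (2.21) and A14 (1.55), against 0.39 on WT1. With median centring it passed 2-fold in no strain. The median of the 6 genes was 0.92 in A10, against 0.02 on WT1, and between -0.12 and 0.22 in the other strains. A10 also had low haploid-specific and a-specific genes and a high stress list, and the part of these in the A10 values was not tested.

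**Figure D4:**
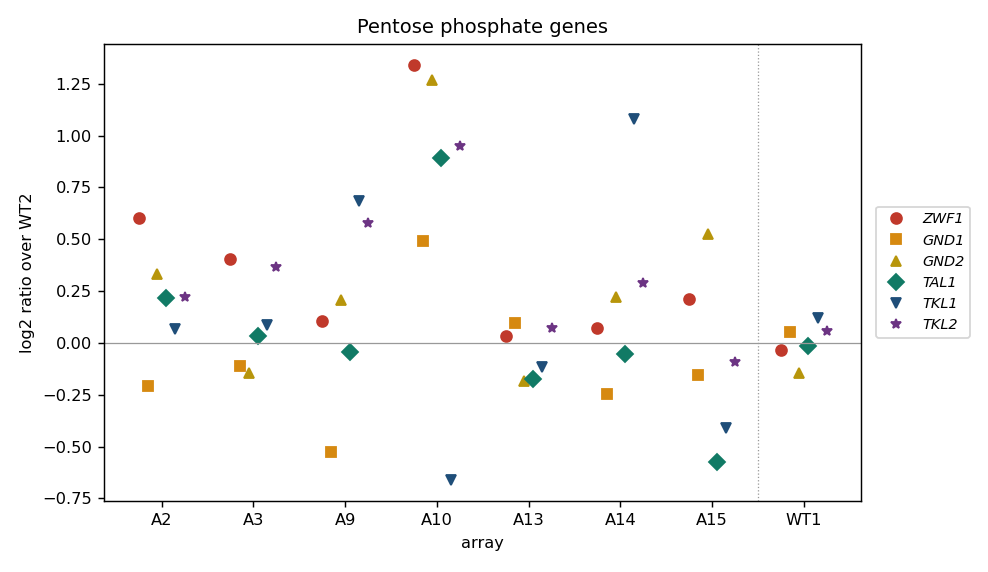
Log2 ratio over WT2 of the 6 pentose phosphate genes on each array, with the strains left of WT1 and points shifted sideways for legibility. In A10 ZWF1, GND2, TKL2, TAL1 and GND1 lie between 0.49 and 1.34 and TKL1 at -0.66, whereas WT1 holds all 6 between -0.15 and 0.12.

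The next question was how far the 35 genes follow the chromosome that carries them. A chromosome was called raised in a strain when the median log2 ratio of its tested genes was at least 0.3. By this rule 19 of the genes lay on a raised chromosome in at least 1 strain, which gave 41 pairs of gene and strain. These were 9 in A10, 8 in A3, 8 in A15, 7 in A2, 7 in A9, 1 in A13 and 1 in A14. In A13 several chromosomes fell short of the threshold, with medians of 0.28 for II, 0.26 for XI, 0.23 for VIII and 0.19 for XIII. Genes on them count as not raised. The ratio was above 0 in 37 of the 41 pairs (90.2%), with a median of 0.53. Over all genes tested it was above 0 in 92.3% of 6917 such pairs, with a median of 0.60. On chromosomes not raised, the ratio was above 0 in 102 of 203 pairs (50.2%), with a median of 0.0034, against 41.8% of 35881 pairs and -0.05 over all genes. Relative to the chromosome's median, 20 of the 41 pairs were higher, with a median difference of -0.07. FBA1, PGK1 and GPM1 in A10 and GPM1 in A15 read below their chromosome, at -0.32, -0.25, -0.78 and -0.32. Their Cy5 spots were saturated, so these readings have no direction and the tallies of the set may read low. The rule for a raised chromosome used the same arrays, so these values are a description.

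The 4 pairs below 0 were ADH5 in A2 and A9, TKL2 in A15 and GPM1 in A10, the last of them saturated. Genes that lay below their raised chromosome more than once included PDC1, PDC5 and TAL1 on chromosome XII. In A2 they were 0.52, 0.34 and 0.38 below that chromosome, and in A3 0.38, 0.35 and 0.47 below it. TAL1 went the other way in A10, 0.57 above. Of the genes on chromosome II, PGI1 and PDB1 lay above the chromosome in A2, A3 and A15. On WT1 they lay above it too, at 0.13 and 0.32. In A15 they were at 0.13 and 0.25, so PGI1 was level with WT1 and PDB1 below it. The largest excess was that of GLK1 in A10, 2.38 log2 units over its chromosome as a lower bound. CDC19 in A3 was 1.62-fold over its chromosome, TDH2 in A15 1.64-fold and PDB1 in A9 1.60-fold. On WT1 CDC19, TDH2 and PDB1 were at 1.37, 0.96 and 1.25 times their chromosome. Chromosome VII held 7 of the 35 genes, the most of any, and was raised in no strain. On it ENO1 and GND2 lie with 1 gene between them in the R64 gene order, yet their highest values were in different strains, A9 for ENO1 and A10 for GND2.

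**Figure D5:**
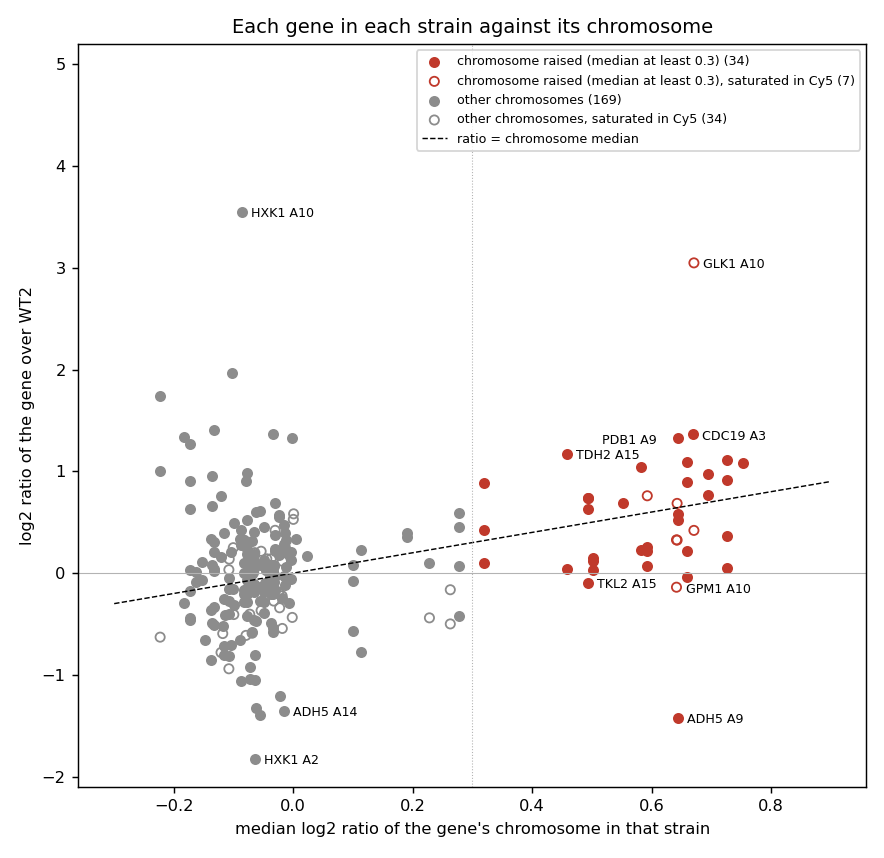
Log2 ratio over WT2 of each gene in each of the 7 strains against the median log2 ratio of its chromosome in that strain. Red points are the 41 pairs on raised chromosomes, grey points the 203 others, and open points had a saturated Cy5 spot. The red points scatter about the dashed line of equality, with GLK1 in A10 far above and ADH5 in A9 far below.

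Minor and major isoenzymes were set side by side over 15 pairs within a step. HXK2, ADH1, PDC1 and TDH1 each enter several pairs, so the pairs are not independent of each other. Pairs with PDC6 and TKL2 are counted, although their mean differences changed sign with the scaling. The pairs get no test, since the list was chosen with results of these data known. Pairs with a saturated Cy5 spot in either gene were left out on that array, a choice made after seeing the data. The minor enzyme then had the higher ratio in 9 of 12 pairs in A10, 8 of 12 in A9, 4 of 6 in A13, 6 of 11 in A14, 7 of 12 in A2, 6 of 13 in A3 and 4 of 13 in A15, against 7 of 13 on WT1. The median difference of log2 ratios was 0.82 in A10, 0.48 in A9 and -0.35 in A15, against 0.03 on WT1. Differences of at least 1 in size occurred in 5 pairs in A9, 4 in A10, 3 in A15, 2 in A3, 1 each in A2 and A14, and 0 in A13, and in 0 on WT1. Minor isoenzymes spanned a median of 1.55 log2 units over the strains and major ones 1.14, in part from saturated readings. The smallest and largest spans were 0.41 for TDH1 and 5.38 for HXK1 among the minor, and 0.36 for HXK2 and 2.24 for TDH2 among the major.

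The direction was not shared by all steps. ENO1 minus ENO2 was 2.0 in A9, 1.04 in A10, 0.91 in A14 and 0.63 in A13, and between -0.47 and -0.31 in A2, A3 and A15, against -0.03 on WT1. GPM2 minus GPM1 was 1.88 in A10, 1.70 in A9, 1.09 in A14 and 0.32 in A13, and between -0.60 and -0.53 in the same 3 strains, against 0.16 on WT1. Both sets of differences are upper bounds, because the major enzyme was saturated in every strain. It was saturated on WT1 too, so strains and WT1 cannot be compared for these steps. PYK2 minus CDC19 ran from -1.47 in A3 to 0.83 in A10, against -0.33 on WT1. ADH5 minus ADH1 was -1.41 in A14 and -1.14 in A9, and 1.11 in A15, against -0.13 on WT1. PDC5 minus PDC1 stayed between -0.25 and 0.33, against -0.05 on WT1.

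Genes of neighbouring routes gave context from a list of 44, among them those of glycerol, acetate and gluconeogenesis. None of them passed limma's test of the strains minus WT1, with 0 higher and 0 lower (0% of all genes in each direction) and 0 at an unadjusted p under 0.05. At least 2-fold higher than WT2 were 15 in A10, 5 in A9, 3 in A15, 2 in A14, 1 in A13, 1 in A2 and 0 in A3, and on WT1 0, where 8.41%, 4.24%, 2.29%, 2.98%, 0.426%, 2.68%, 2.08% and 0% of all genes were. At least 2-fold lower were 2 in A2 and 1 each in A3, A10 and A15 (1.1%, 0.686%, 3.46% and 1.27% of all genes), and 0 in A9, A13, A14 and on WT1. The median of the 44 was 0.64 in A10 and between -0.13 and 0.11 in the other strains, against -0.03 on WT1. SOL4, a phosphogluconolactonase of the oxidative branch, was at 2.98 in A10 and 1.76 in A9, against 0.05 on WT1. ALD4, the mitochondrial aldehyde dehydrogenase, reached 3.25 in A10, 1.60 in A13 and 1.38 in A9, against -0.08 on WT1. PGM2, phosphoglucomutase, was at 1.89 in A10 and 1.40 in A9, against 0.08 on WT1, and between -0.66 and -0.57 in A2, A3 and A15. GPP2, a glycerol phosphatase, had 1.47 in both A9 and A10, 1.34 in A14 and -1.29 in A2, against 0.14 on WT1. GPD1, which feeds glycerol synthesis, was at -1.38 in A2, -1.03 in A3 and -1.02 in A15, against -0.04 on WT1. The remaining genes past 2-fold in several strains were ALD3, ACS2 and PCK1. ALD3, a stress-induced aldehyde dehydrogenase, stood at 1.28 in A9 and 1.35 in A10, against -0.14 on WT1. ACS2, acetyl-CoA synthetase, stood at 1.48 in A2 and 1.15 in A10, against 0.53 on WT1. PCK1, a key enzyme of gluconeogenesis, stood at 2.26 in A10 and 1.18 in A15, against 0.03 on WT1. Some of these values stand beside raised chromosomes. PCK1 lies on XI, at 0.64 in A10 and A15, and ACS2 on XII, at 0.59 in A2 and 0.32 in A10. ALD4 lies on XV, at 0.58 in A10, and PGM2 and ALD3 on XIII, at 0.70 in A9. The part of the chromosomes in these values was not tested.

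Among the regulators, GCR1, GCR2 and RAP1, the activators of the major glycolytic genes, stayed within 1 log2 unit of WT2 in all 7 strains. GCR1 lay between -0.43 and 0.62, with its highest values in A14 and A9, where its chromosome XVI was raised, against 0.13 on WT1. TYE7, another activator of glycolytic genes, was at -0.56, -0.87, -0.13, -1.10, -0.75, 0.06 and -1.5 in strains A2, A3, A9, A10, A13, A14, A15, against 0.11 on WT1. It was at least 2-fold lower in A10 and A15. MIG1, a repressor of glucose-repressed genes, was between -0.67 and -0.09 in the strains, against -0.04 on WT1. MSN4, an activator of stress genes, was at 2.17 in A10 and -0.03 in A15, the strains with a raised chromosome XI, which carries it. Elsewhere it was between -0.79 and 0.81, against 0.04 on WT1. MSN2, its paralogue, was at 0.85 in A9, where chromosome XIII was raised, and between -0.30 and 0.40 elsewhere, against 0.05 on WT1.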

How the data were processed

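Total RNA of 7 aneuploid strains and WT1 (Cy5) was hybridised against WT2 RNA (Cy3) on 8 arrays, per the labels, all of 1 slide, per the file headers. No dyes were swapped. Agilent Feature Extraction 10.5.1.1 quantified the spots, per the file headers. The deposited median intensity of spot and background was used here. A further intensity, background-subtracted and dye-normalized by the software per the file headers, comes with its log10 ratio of red over green. Log2 ratios fill the deposited table of values, equal to these log10 ratios on a log2 scale within 5e-04, with 0 columns that belong to no sample.

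Normexp (offset 50) and loess within arrays gave the ratios in limma 3.58.1 (R 4.3.3), with weight 0 for 536 control spots. Chromosome and gene names came from a table of assembly R64 (5756 of 6256 genes matched), used for names, chromosomes and gene order only, since the array follows an older build. Flagged outlier spots were left out, saturated spots kept and the 2 spots of a gene averaged; 53 of the 6126 genes tested, PDC5 among the 35, lacked a value on some array. Genes entered the test if either channel exceeded background clearly on 2 arrays or more. limma's lmFit and eBayes compared strains with WT1, two-sided, with Benjamini-Hochberg adjustment over all genes tested. The fit was tested on simulated data in which WT1 varied like the strains, so the simulation cannot check that assumption. Over all genes tested the ratios had an SD of 0.16 on WT1, against 0.27 in A13 to 0.71 in A10. The p-values measure the spread between these samples, which are differently named strains with different raised chromosomes. No label states separate cultures and no strain has a replicate array. Part of that spread may therefore be technical, and the size of that part between arrays was not measured. The number of arrays limits the precision.

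The 35 genes and all lists were chosen with earlier results of these data known. All 35 are accounted for; those past 2-fold in a strain, saturated or in an isoenzyme pair have their value in every array and the others a range. Neighbouring genes were named where past 2-fold in at least 2 strains. Alternatives were Agilent's processed signals, median centring, the deposited table, no filter, no saturated spots, WT2 in place of WT1, the slide row, leaving out strains and, chosen after seeing the data, leaving out isoenzyme pairs with saturated spots. No sequences are printed, because the files used here hold none.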

Additional observations from a re-analysis of the deposited data

Results flagged for a closer look

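Over the 7 strains, 35 gene profiles and 15 isoenzyme differences were examined for a sample far from the others, and 2 gene profiles held one. Chance alone marks about 1 in 20 such groups. PDC6 was at 0.90 in A10, with the next strain at 0.30, a gap of 0.661 of the whole range. PDC1 was at -0.15 in A9, with the next strain at 0.07, a gap of 0.624 of the range. No isoenzyme difference was marked.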

How the results depend on the processing

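No paired analysis was possible because each strain was measured once and the labels give no replicate numbers that the strains and WT1 share. In the 15 alternatives other than WT2 in place of WT1, limma called 0 of the 35 genes and 0 genes of the array, before and after chromosome centring; leaving out each strain in turn gave 0 to 0. These 15 alternatives all kept WT1 as the lone control, so 0 calls do not show that the genes were unchanged. Against WT2 limma called 1 of the 35 genes, and 4 relative to the chromosomes, out of 327 and 698 genes. The slide row, as a block or within the row that holds WT1, changed no call. Both settings gave the same fitted differences, with PDB1 at 0.29 and ZWF1 at 0.14. These rest on A13, A14 and A15 alone, the strains in WT1's row. Row and strain cannot be told apart here, so the values do not measure an effect of the row. Of the fitted differences, PDC6 turned to -0.0206 with median centring. CDC19 turned to -0.0417 and HXK1 to -0.12 when 1 strain was left out (A3 and A10). Without A9 and A10, HXK1 was at -0.54, GLK1 at -0.21 and ADH5 at 0.0129. PDB1 became called against WT2, at 0.86.

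With Agilent's processed signals, and with the deposited table, counts past 2-fold were 6 in A2, 6 in A3, 9 in A9, 9 in A10 and 3 in A14. With median centring they were 6 in A9, 2 in A13 and 3 in A15. Relative to the chromosome they were 2 in A2, 1 in A3 and 1 in A14. At 1.5-fold they were 8 in A2, 6 in A3, 13 in A9, 15 in A10, 7 in A13, 3 in A14 and 12 in A15. The share over all genes was not taken at these settings, so the counts cannot be read as particular to the set. GPM2 was at -1.96 in A2 and -1.67 in A3 with processed signals. Of the strain values at least 1 in size, 0 of 26 changed sign with the scaling, of those between 0.3 and 1 in size 2 of 98, and of the smaller ones 34 of 120. The mean PDC6 minus PDC1 was 0.76 with processed signals and 0.76 with the deposited table, and -0.42 with median centring. TKL2 minus TKL1, 0.24 as reported, was 1.11 with either of the first 2 and -0.33 with median centring. Without saturated spots ENO1 minus ENO2 was -0.51 and GPM2 minus GPM1 -0.59, each from the single strain left. With pairs that hold a saturated spot kept, the minor enzyme was higher in 10 pairs in A13, against 4 without them. The pairs on raised chromosomes numbered 38 to 49 over thresholds of 0.2 and 0.45, processed signals and the deposited table.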
